A study of Arabidopsis thaliana with 24 samples.

Results

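Root tips and shoot apices of normal Arabidopsis seedlings were compared at the level of mRNA, using 6 of the 24 libraries of the study: 3 libraries of wild-type root tips and 3 of wild-type shoot apices. The members were taken by label, as every mRNA library of wild type, and no measured value was used to choose them. All 6 came from Col-0 plants 5 days after germination, raised in long days on MS medium with sucrose, and the labels name no mutation or transgene in them. The other libraries hold small RNA of the same tissues and the mRNA and small RNA of rh27-2, a mutant of the DEAD-box RNA helicase gene RH27; the rh27-2 mRNA libraries appear below for comparison only. The labels do not say whether a library pooled several plants, how far from the tip the tissue was cut or whether replicates came from separate sowings, so the p-values measure the spread between these libraries, which may be technical.

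Root and shoot of a seedling are built by a pair of meristems laid down in the embryo. In the root, PLETHORA (PLT) and GRAS transcription factors keep the stem cells around a quiescent centre, a cap covers the tip, and hairs, an endodermis with a Casparian strip and xylem form as cells leave the meristem. In the shoot, class I KNOX homeodomain proteins such as STM keep the meristem undifferentiated, and leaf primordia on its flanks take on YABBY, TCP and GRF factors, a waxy epidermis with stomata, and green plastids.

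The 6 libraries held 15603992 to 20032006 counts over 33341 loci and detected 21650 to 22050 loci each. Among 19938 genes that passed the filter on low counts, the quasi-likelihood test of edgeR, with p-values adjusted by Benjamini and Hochberg, called 7229 higher in root tips and 7564 higher in shoot apices at an adjusted p of 0.05. These are 36.3% and 37.9% of the genes tested, and 4438 (22.3%) and 5046 (25.3%) of them differed at least 2-fold. The median fitted log2 difference, root tips minus shoot apices, was -0.045, with quartiles at -1.04 and 0.85, and 3449 genes (17.3%) had a 95% interval that lay within 1.5-fold in either direction. Genes at least 2-fold higher in an organ took 38.2% of the counts of root tips and 40.8% of those of shoot apices. Root tip replicates were closer to each other (Spearman correlation across genes 0.995 to 0.996, biological coefficient of variation 0.0652) than shoot apex replicates (0.969 to 0.979, and 0.216). In the first principal component, which held 96.5% of the variance, the organs stood apart. Levels below are CPM, counts scaled to a common library total after TMM, in the order of replicates 1, 2 and 3. They are compared within a gene, since they are not divided by gene length.

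**Figure D1:**
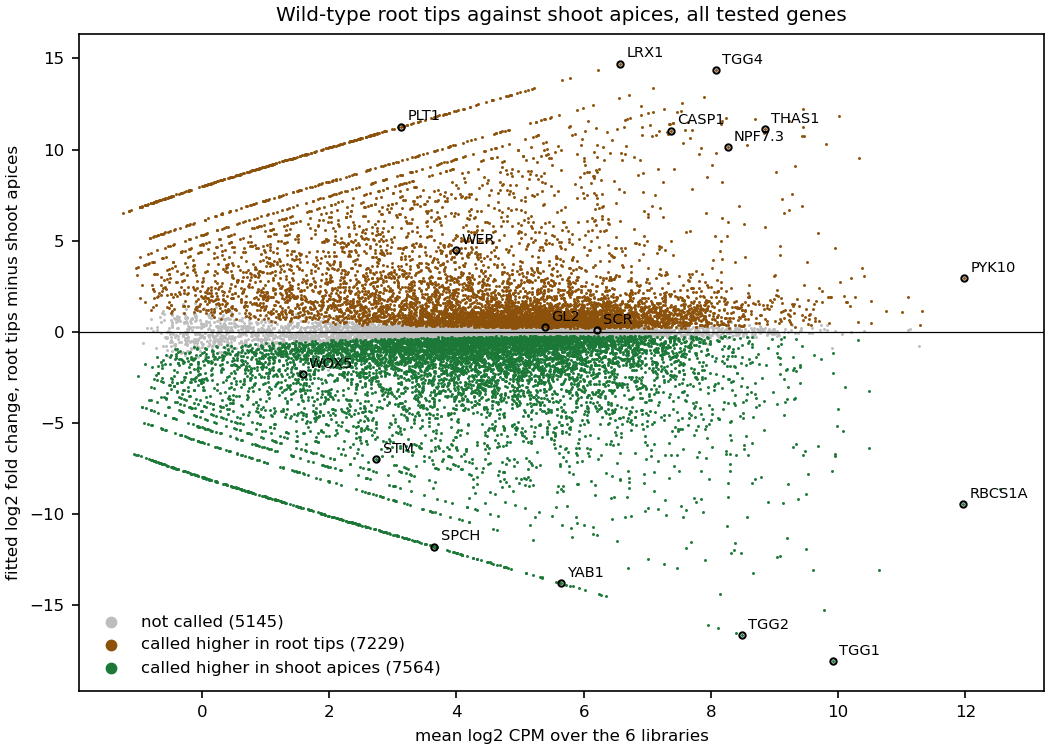
Each point is 1 tested gene, with its mean log2 CPM over the 6 libraries on the horizontal axis and the fitted log2 fold change of root tips minus shoot apices on the vertical axis; brown and green points are called higher in root tips (7229) and in shoot apices (7564), and grey points are not called. TGG1 and TGG2 lie lowest, LRX1 and TGG4 highest, SCR and GL2 near 0, and the outermost diagonals are genes at 0 in every library of 1 organ, whose fitted value depends on a prior count.

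Marker genes were set against the tissue labels first. Markers of root hair cells summed to 797 to 999 CPM in root tips and 0.110 to 0.799 CPM in shoot apices, and those of the endodermis to 575 to 607 and 1.16 to 1.91 CPM. Mesophyll markers summed to 11113 to 18766 CPM in shoot apices and 40.2 to 56.5 CPM in root tips, and guard cell markers to 30.5 to 43.3 and 0.126 to 0.550 CPM. The root tip libraries thus held RNA of hairs, differentiated endodermis and xylem (xylem markers 565 to 666 CPM, and 101 to 110 CPM in shoot apices) beside that of the meristem (quiescent centre and root meristem markers 34.8 to 39.6 CPM), and the shoot apex libraries held RNA of green leaf tissue beside that of the meristem (shoot meristem markers 30.9 to 52.6 CPM). Some sets stood closer in the organs. Phloem markers summed to 89.3 to 118 CPM in root tips and 57.9 to 82.5 CPM in shoot apices. Those of the non-hair root epidermis summed to 70.8 to 80.7 and 24.7 to 47.0 CPM, and trichome markers to 9.45 to 10.2 and 14.9 to 29.7 CPM. Defining markers of the shoot stem cells were close to 0: WUS, which specifies the organizing centre, had 0.184, 0.103 and 0 CPM in shoot apices, and CLV3, the stem cell peptide, 0.369, 0.618 and 0.221 CPM, with both at 0 in every root tip library. In bulk tissue such as this, fewer cells of a type and less RNA per cell cannot be told apart, which holds for every difference below. Plastid-encoded loci took 0.0179% to 0.0207% of the counts in shoot apices and 0.000884% to 0.00179% in root tips, while mitochondrion-encoded loci took 0.0109% to 0.0128% and 0.0379% to 0.0624% (exact permutation p = 0.1 for each, two-sided, the smallest that 3 against 3 libraries allow).

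Genes of the root stem cell niche were higher in root tips in 16 of the 18 tested, with 1 lower and 1 not called, against 36.3% higher among all genes. The median fitted log2 difference of the list was 6.07, or 4.84 when genes at 0 in an organ are set at their lower bound. PLT1, a master regulator of the root meristem, had 18.17, 19.3 and 14.5 CPM in root tips and 0 in all shoot apex libraries. It was at least 311-fold higher in root tips (edgeR adjusted p = 5.32e-06), where this and later bounds put the empty group at 3 counts over its 3 libraries. PLT2 followed with 12.2, 12.5 and 13.2 CPM against 0, 0 and 0.110, and BBM, another PLT family member, with 7.04, 7.25 and 5.92 CPM against 0.0615, 0.206 and 0.0552. The receptor RGI1, which perceives root meristem growth factor peptides, had 65.1, 72.8 and 62.6 CPM in root tips and at most 0.552 CPM in shoot apices. Of the peptides themselves, 8 of the 10 tested GLV/RGF genes were higher in root tips and 1, RGF9, in shoot apices.

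SHR and SCR, GRAS factors that pattern the ground tissue together, differed from each other. SHR had 43.6, 44.4 and 40.1 CPM in root tips and 19.1, 18.6 and 20.8 CPM in shoot apices, a log2 difference of 1.13 ± 0.10 (SE; edgeR adjusted p = 2.19e-05). SCR had 73.8, 84.4 and 71.3 CPM in root tips and 67.8, 66.7 and 78.9 CPM in shoot apices, so the organs overlapped and the gene was not called (log2 difference 0.10 ± 0.11, edgeR adjusted p = 0.407). JKD, which restrains SHR movement, was higher in root tips by 1.74 ± 0.37 on the log2 scale. The gene that ran against its list was WOX5, known as the marker of the quiescent centre. It had 1.13, 0.504 and 1.16 CPM in root tips and 5.53, 7.22 and 1.602 CPM in shoot apices (log2 difference -2.34 ± 0.58, edgeR adjusted p = 0.00749), and every shoot apex library was above every root tip library.

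Of 9 tested root cap genes, 7 were higher in root tips, 1 was higher in shoot apices and 1 was not called. Cap maturation factors of the NAC family were near 0 in shoot apices, with SMB at 16.2, 19.8 and 13.4 CPM against 0, 0 and 0.110, BRN1 at 16.5, 19.5 and 18.0 CPM against 0.492, 0.206 and 0.110, and BRN2 at least 225-fold higher. FEZ, which promotes the cap stem cell divisions, was at least 49-fold higher. CEL5, a cell wall hydrolase of the shedding cap, was 2.25 ± 0.13 higher on the log2 scale, with 22.7 to 29.8 CPM in shoot apices. PGM1, a plastid enzyme of starch synthesis listed here for the starch of the columella, was lower in root tips (20.6, 21.1 and 20.03 CPM against 140, 105 and 119 CPM).

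Of 25 genes of root hair growth in the epidermis, 24 were higher in root tips, 22 of them at least 2-fold, with a median log2 difference of 10.6 (9.98 at the bounds). RHD6, the basic helix-loop-helix factor that starts hair growth, had 40.8, 36.7 and 43.8 CPM in root tips and 0 in shoot apices (at least 726-fold, edgeR adjusted p = 1.12e-06). RSL4, which sets hair length, had 41.2, 41.0 and 56.7 CPM against 0.0615, 0.103 and 0. The wall proteins LRX1 (at least 3381-fold), PRP3 (521, 552 and 668 CPM against at most 0.369) and COBL9 (120, 123 and 135 CPM against at most 0.184) and the expansin EXPA7 (75.1, 77.1 and 94.7 CPM against at most 0.184) went the same way. The small GTPase ROP2, which also acts outside hairs, was the gene not called, with 118, 110 and 122 CPM against 126, 97.3 and 87.5 CPM.

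The upstream factors of hair patterning also act in leaf trichomes. Of 16 tested, 4 were higher in root tips, 6 higher in shoot apices and 6 not called, where 36.3% and 37.9% of all genes were higher. WER, the root epidermal MYB, had 29.3, 31.4 and 29.8 CPM in root tips and 1.17, 0.825 and 2.04 CPM in shoot apices. Its trichome relative GL1 showed the reverse pattern, 0 in every root tip library and 9.10, 3.40 and 4.25 CPM in shoot apices (at least 95-fold, edgeR adjusted p = 0.000437). GL2, the homeodomain factor downstream of both, had 41.5, 49.3 and 45.4 CPM in root tips and 45.9, 23.9 and 44.4 CPM in shoot apices and was not called (edgeR adjusted p = 0.354). Their shared partner EGL3 and the inhibitor TRY were not called either. GL3, the partner closest to EGL3, was higher in root tips by 1.51 ± 0.33 on the log2 scale, and the mobile inhibitor CPC by 1.14 ± 0.21.

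Barrier genes of the inner root were higher in root tips in nearly all cases. Of 14 endodermis and Casparian strip genes, 13 were higher in root tips (median log2 difference 7.73), and the exception was the receptor GSO2, which was not called. CASP1, a scaffold protein of the strip, had 324, 342 and 326 CPM in root tips and 0.492, 0 and 0 CPM in shoot apices (log2 difference 11.04 ± 0.51, edgeR adjusted p = 9.43e-07). MYB36, the factor that switches on the CASP genes, had 38.5, 43.1 and 40.7 CPM against 0.123, 0.258 and 0.110. ESB1, a dirigent-like protein of the strip, was at or under 0.361 CPM in all 6 libraries and was not tested. Suberin genes were higher in root tips in 14 of 16, among them CYP86A1 (58.0, 64.0 and 44.1 CPM against at most 0.246) and GPAT5 (21.6, 24.3 and 15.4 CPM against at most 0.184), which make suberin monomers. The 2 higher in shoot apices were the fatty acyl reductase FAR1 and the elongase KCS20, at 454, 488 and 413 CPM there and 132, 139 and 138 CPM in root tips.

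Vascular genes were described as xylem, phloem and procambium. Of 23 tested xylem and secondary wall genes, 19 were higher in root tips and none in shoot apices, with a median log2 difference of 1.92. The secondary wall cellulose synthase CESA4 had 93.8, 87.3 and 105 CPM against 14.4, 13.8 and 16.7, and the protease XCP1 176, 145 and 172 CPM against 11.2, 9.79 and 7.02. VND7, a switch for protoxylem, was higher in root tips by 2.01 ± 0.30 on the log2 scale, while the metaxylem switch VND6 was not called (edgeR adjusted p = 0.159). Of 13 tested laccases, a family that includes lignin-polymerizing enzymes such as LAC4 and LAC11, 12 were higher in root tips and none in shoot apices.

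Phloem genes were higher in root tips in 11 of 17 and in shoot apices in 3, a count that fell to 1 without root tip replicate 1 or 2. The sugar exporters SWEET11 (log2 difference 3.49 ± 0.32) and SWEET12 (3.21 ± 0.12) led the list, and the companion cell sucrose transporter SUC2 had 50.4, 34.8 and 44.9 CPM in root tips and 28.5, 22.5 and 42.5 CPM in shoot apices and was not called (edgeR adjusted p = 0.109). It passed the threshold without shoot apex replicate 3 (edgeR adjusted p = 0.00639). Of 18 tested procambium genes, 5 were higher in root tips, 6 in shoot apices and 7 not called, against 36.3% and 37.9% of all genes. Without shoot apex replicate 2 the shoot count was 10. PXY, the receptor that keeps the cambium dividing, was higher in shoot apices by 1.34 ± 0.25 on the log2 scale, and TMO5, which starts vascular divisions, was higher in root tips by 1.19 ± 0.14.

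**Figure D2:**
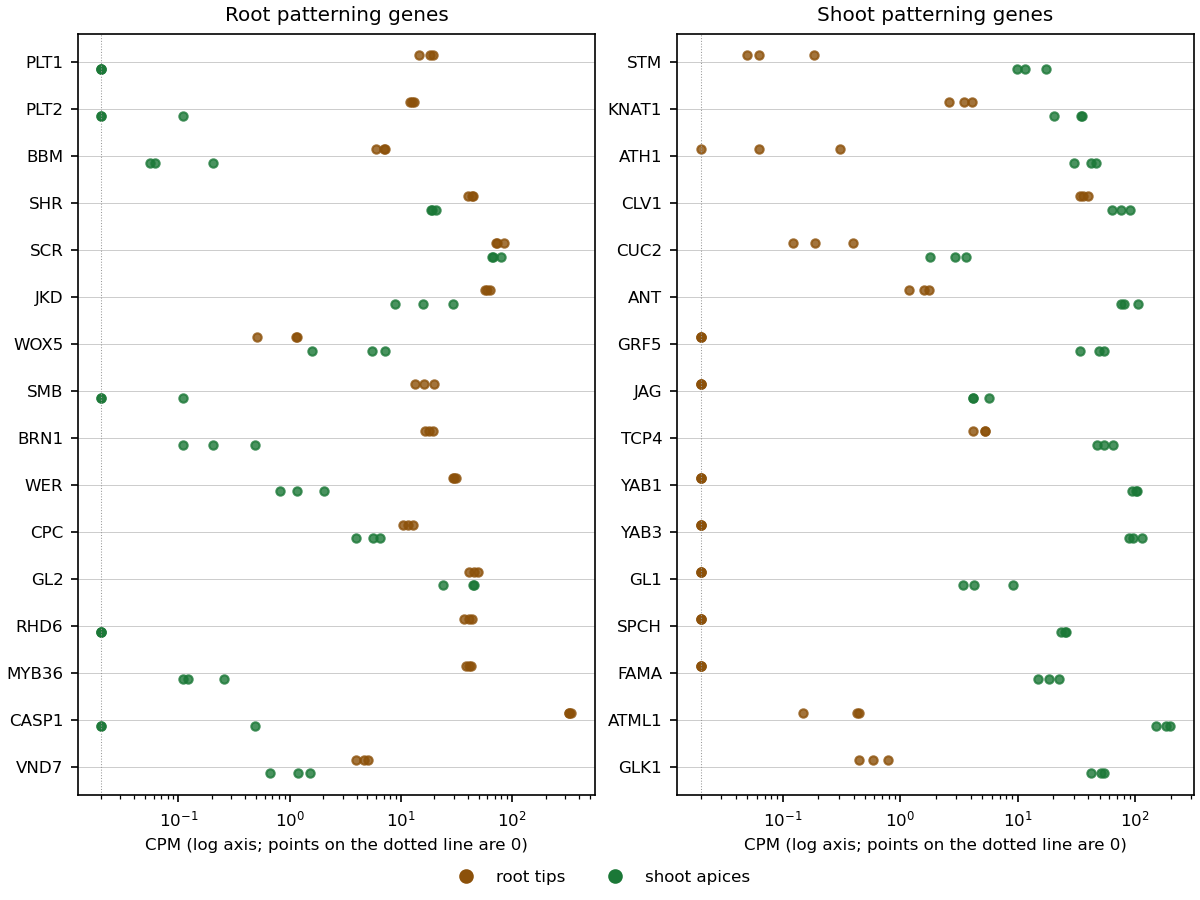
CPM of 32 patterning genes in each library, on a log axis with values of 0 on the dotted line; each row is 1 gene, brown points are the 3 root tip libraries and green points the 3 shoot apex libraries. SCR and GL2 overlap between the organs, WOX5 lies higher in shoot apices, and PLT1, RHD6, GRF5, JAG, YAB1, YAB3, GL1, SPCH and FAMA are at 0 in every library of 1 organ.

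On the shoot side, 18 of 21 tested shoot meristem genes were higher in shoot apices (37.9% of all genes were) and 1 in root tips. STM had 11.6, 9.79 and 17.57 CPM in shoot apices and 0.0492, 0.0630 and 0.183 CPM in root tips (log2 difference -6.99 ± 0.45, edgeR adjusted p = 4.69e-06). Its partner ATH1 had 42.1, 30.3 and 46.7 CPM against 0, 0.0630 and 0.305. KNAT1, the KNOX gene also called BREVIPEDICELLUS, was present in both organs, at 35.5, 20.4 and 34.9 CPM in shoot apices and 2.61, 3.47 and 4.09 CPM in root tips. The boundary genes CUC1, at 0 in root tips, and CUC2, at 2.95, 1.804 and 3.65 CPM against 0.394, 0.189 and 0.122, were among the lower counts called. LOG7, a cytokinin-activating enzyme related to LOG4, was the member higher in root tips (35.2, 41.8 and 45.6 CPM against 7.498, 13.2 and 7.02), and KNAT6 and LOG4 were not called.

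Regulators of lateral organ growth were higher in shoot apices in 27 of 31 (median log2 difference -3.50). GRF5, which promotes leaf cell division, had 49.5, 33.6 and 54.0 CPM in shoot apices and 0 in root tips (at least 793-fold, edgeR adjusted p = 7.28e-06). ANT, an AP2 factor of organ size, had 106, 75.9 and 80.6 CPM against 1.18, 1.76 and 1.59. TCP4, which slows leaf cell division, had 64.7, 47.4 and 53.8 CPM against 5.27, 5.23 and 4.15, and over the whole TCP family 15 of 17 tested genes were higher in shoot apices and none in root tips. The 2 exceptions of the list were GRF1 (77.5, 86.8 and 82.9 CPM in root tips against 47.3, 35.1 and 50.2) and AIL6, also called PLT3 (40.7, 46.6 and 43.7 CPM against 17.1, 23.6 and 17.8). The AP2 genes therefore divided by member: PLT1, PLT2, BBM and AIL6 were higher in root tips, and ANT, PLT5 and AIL7 (PLT7) in shoot apices.

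Among leaf polarity genes, those of abaxial identity differed in kind. All 4 tested YABBY genes were higher in shoot apices. YAB1 had 103, 94.5 and 102 CPM there and YAB3 113, 88.0 and 96.0 CPM, both with 0 in every root tip library (at least 1744-fold and 1723-fold, edgeR adjusted p = 3.40e-07 and 9.31e-07). The KANADI genes, also abaxial, differed among themselves, with KAN3 higher in shoot apices (13.5, 9.64 and 14.4 CPM against 0.345, 0.189 and 0.244), KAN4 higher in root tips (18.22, 19.8 and 19.1 CPM against 0.246, 0.103 and 0.884) and KAN2 not called. Of the adaxial HD-ZIP III genes, REV was not called. Over the list, 10 of 15 were higher in shoot apices and 3 in root tips.

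Of 19 stomatal lineage genes, which pattern the aerial surface, 18 were higher in shoot apices (median log2 difference -7.65, or -6.82 at the bounds). SPCH, which starts the lineage, had 25.7, 23.6 and 25.5 CPM in shoot apices, and FAMA, which ends it, 22.4, 15.0 and 18.6 CPM, with both at 0 in root tips (at least 435-fold and 323-fold). The receptor TMM had 27.2, 23.0 and 21.3 CPM against 0.0985, 0.441 and 0.244. MYB88, which limits guard cell divisions, was the exception, at 56.5, 56.8 and 53.1 CPM in root tips and 11.7, 9.90 and 13.6 CPM in shoot apices.

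Of 25 outer layer and cuticle genes, 23 were higher in shoot apices, all at least 2-fold. ATML1, the epidermal identity factor, had 199, 151 and 182 CPM in shoot apices and 0.148, 0.441 and 0.427 CPM in root tips, and its target PDF1 1421, 1084 and 995 CPM against 0.345, 0.630 and 0.427. The wax elongase CER6 had 242, 170 and 210 CPM against 0, 0.0630 and 0. CER4, an alcohol-forming reductase, went the other way, with 48.8, 49.8 and 50.7 CPM in root tips and at most 0.430 CPM in shoot apices. So did AT1G69040 (108, 112 and 112 CPM against 49.0, 50.7 and 62.3), to which the symbol ACR4 was matched. This locus is an ACT domain gene of that symbol and not the receptor kinase ACR4, whose values are not given here. Of 8 lipid transfer protein genes found by an LTP symbol, 6 were tested, and all 6 were higher in shoot apices.

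Photosynthesis genes had 1 direction throughout. All 20 tested light harvesting antenna genes and all 33 photosystem and electron transport genes were higher in shoot apices, with median log2 differences of -8.07 and -6.43. LHCB4.1, an antenna protein of photosystem II, had 1960, 1899 and 2003 CPM in shoot apices and 15.6, 18.3 and 17.5 CPM in root tips (log2 difference -6.84 ± 0.13, edgeR adjusted p = 8.22e-08). PSBO1, of the oxygen-evolving complex, had 2084, 2100 and 2162 CPM against 44.7, 52.5 and 48.0. Together the antenna genes took 2.27%, 3.01% and 3.62% of the counts of the 3 shoot apex libraries and 0.0115% to 0.0135% of those of root tips.

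Carbon fixation and photorespiration genes were higher in shoot apices in 28 of 30. RBCS1A, a small subunit of Rubisco, had 10357, 7501 and 6153 CPM in shoot apices and 8.62, 12.3 and 13.1 CPM in root tips, and the activase RCA 4404, 2613 and 1435 CPM against 28.5, 39.0 and 34.0. Shoot apex replicates differed here in opposite ways: replicate 1 was highest for carbon fixation (4.201%, 2.74% and 2.08% of counts) and lowest for the antenna. CP12-3, a regulator of the Calvin cycle enzymes, was the member higher in root tips (8.52, 9.64 and 9.53 CPM against 4.61, 6.96 and 5.80). Reads of near-identical relatives such as LHCB1.1 and its neighbours, the RBCS B genes, and LHCB2.1 and LHCB2.2 may have been split or dropped in counting, so their single values are uncertain.

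Chlorophyll synthesis genes were higher in shoot apices in 18 of 19, by smaller amounts (median log2 difference -3.84). HEMA1, the entry enzyme of the pathway, had 434, 507 and 513 CPM in shoot apices and 69.2, 65.5 and 72.8 CPM in root tips, while CHL27, near its end, had 714, 699 and 752 CPM against 8.27, 10.96 and 10.4. Regulators of greening behaved less uniformly, with 22 of 33 higher in shoot apices and 4 in root tips. GLK1, an activator of photosynthesis genes, had 54.5, 41.7 and 50.8 CPM in shoot apices and 0.591, 0.441 and 0.794 CPM in root tips, and GLK2 76.3, 66.0 and 95.1 CPM against 17.2, 16.8 and 16.7. PIF4, a phytochrome-interacting growth factor, had 10.9, 22.4 and 85.8 CPM in shoot apices and at most 0.0985 CPM in root tips. HY5, the light response factor that travels from shoot to root, was higher in root tips (39.3, 39.8 and 38.8 CPM against 29.3, 22.6 and 19.6; edgeR adjusted p = 0.00287), as was its partner BBX21 (177, 183 and 175 CPM against 31.2, 39.6 and 45.2). BBX21 was the sole root-biased gene among 25 tested BBX genes, of which 18 were higher in shoot apices. The photoreceptor genes PHYA, PHYB and PHYD were not called.

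**Figure D3:**
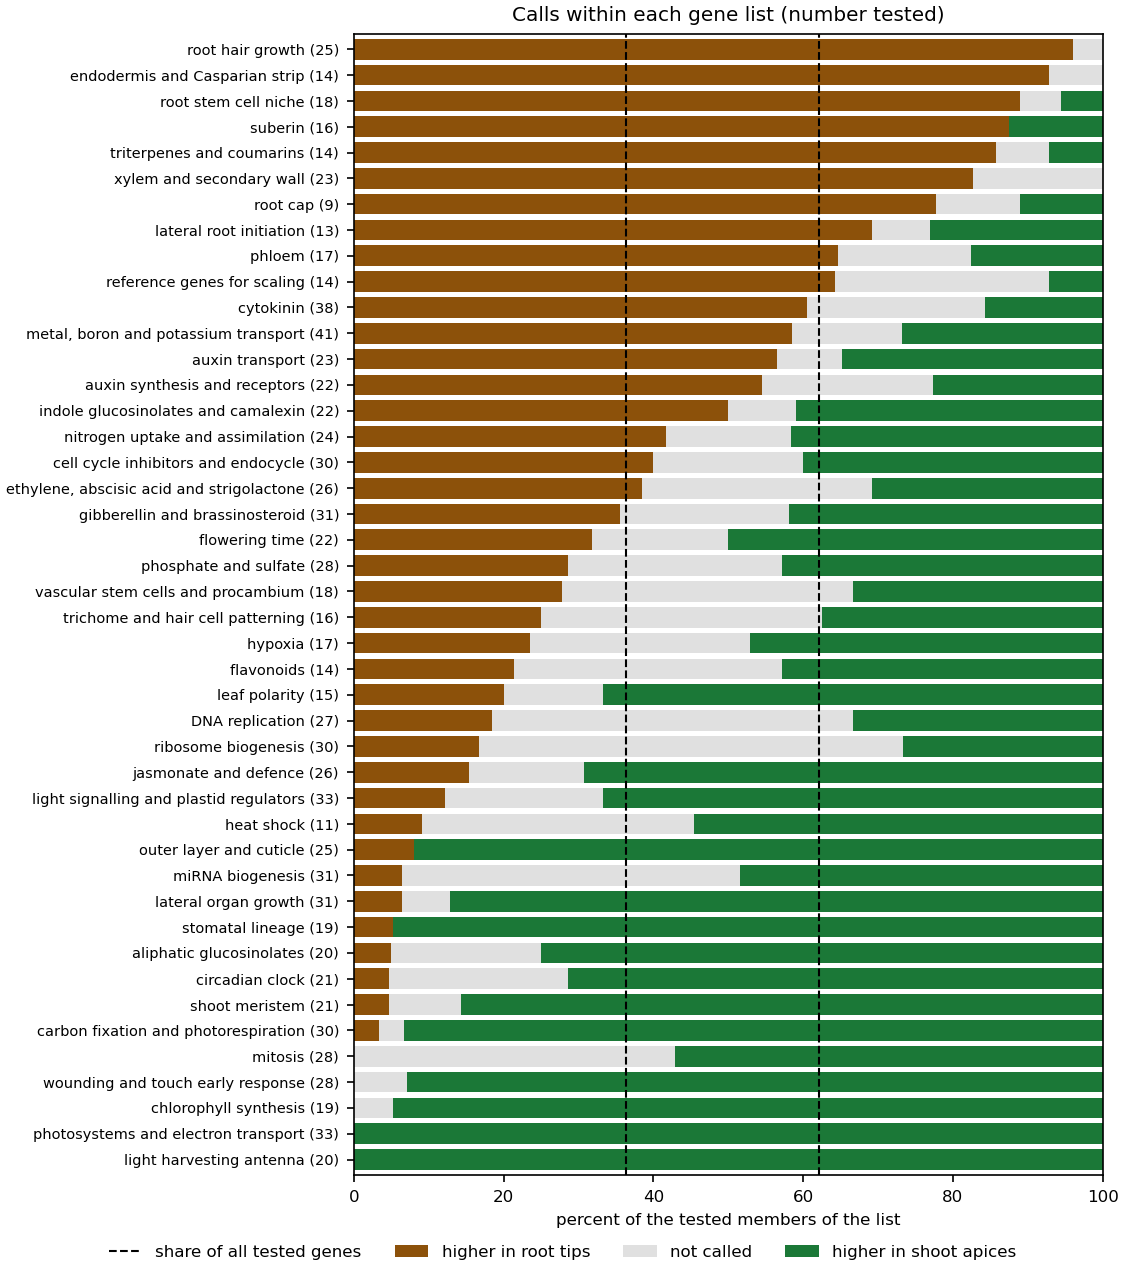
Percent of the tested members of each gene list that were called higher in root tips (brown), called higher in shoot apices (green) or not called (grey), with the number tested in brackets; dashed lines mark the shares of all tested genes, 36.3% from the left and 37.9% from the right. Root hair growth lies at the top and the photosynthesis lists at the bottom, and the hormone and nutrient lists in the middle hold members of both directions.

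Hormone lists held genes of both directions, often within a family. Auxin carriers were higher in root tips in 13 of 23 and in shoot apices in 8, against 36.3% and 37.9% of all genes. PIN2, the carrier that returns auxin shootward in the root epidermis, had 179, 207 and 173 CPM in root tips and 2.34, 2.32 and 3.54 CPM in shoot apices (log2 difference 6.09 ± 0.19). PIN6 was at 0 in root tips and at 9.22, 8.14 and 5.91 CPM in shoot apices. PIN3, a carrier of tropic responses, was higher in shoot apices by 0.64 ± 0.16 on the log2 scale.

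YUCCA genes, which make auxin, were expressed in sets. YUC3 (17.1, 17.9 and 18.5 CPM against at most 0.442), YUC8 (17.0, 14.7 and 16.2 CPM against 0.615, 1.70 and 2.099) and YUC9 (8.12, 7.18 and 8.18 CPM against at most 0.0615) were higher in root tips. YUC1, YUC2 and YUC4 were higher in shoot apices, YUC4 with 4.302, 4.54 and 3.20 CPM there and 0 in root tips (at least 70-fold). The receptors TIR1, AFB1, AFB2 and AFB3 were all higher in root tips, with AFB1 at 79.5, 76.1 and 79.9 CPM against 15.8, 10.3 and 33.0, while AFB4 and AFB5 were not called.

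Cytokinin genes leaned to the root, with 23 of 38 higher in root tips, 6 in shoot apices and 9 not called. AHK4, the receptor also named CRE1 and WOL, had 147, 141 and 164 CPM in root tips and 21.7, 17.5 and 19.4 CPM in shoot apices. Its relative AHK3 was also higher in root tips, by less, and AHK2 was not called. Type A response regulators, which damp the signal, divided: ARR3 had 44.3, 36.0 and 45.1 CPM in root tips and at most 0.221 CPM in shoot apices, and ARR7, a target of the shoot stem cell factor WUS, had 30.9, 44.3 and 69.5 CPM in shoot apices and 0.738, 1.26 and 0.916 CPM in root tips. The activating enzymes LOG1 (92.1, 85.8 and 52.5 CPM in shoot apices against 1.77, 2.96 and 2.32) and LOG3 were shoot-biased where LOG2 and LOG7 were root-biased. The degrading oxidases split likewise, with CKX3 and CKX5 higher in root tips and CKX4 and CKX7 in shoot apices.

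Gibberellin and brassinosteroid genes were called higher in root tips in 11 of 31 and in shoot apices in 13, and ethylene, abscisic acid and strigolactone genes in 10 and 8 of 26, all close to the shares of all genes. GA3OX1, which makes active gibberellin, had 11.9, 13.99 and 11.1 CPM in root tips and 0.860, 0.361 and 0.663 CPM in shoot apices, and the inactivating GA2OX4 6.15, 5.46 and 7.46 CPM in shoot apices and 0.0492 to 0.0630 CPM in root tips. BR6OX1, which makes brassinosteroids, was higher in root tips by 6.19 ± 0.34 on the log2 scale, and CPD, of the same pathway, was higher in shoot apices by 1.17 ± 0.32. CYP707A3, which breaks down abscisic acid, had 368, 196 and 473 CPM in shoot apices and 12.8, 12.03 and 11.1 CPM in root tips. NCED3, which makes it, had 46.4, 29.5 and 37.0 CPM in root tips and 7.81, 4.74 and 9.999 CPM in shoot apices. Other genes of both steps went the opposite way, with CYP707A1 of breakdown higher in root tips (log2 difference 0.97 ± 0.21) and NCED4 and ABA1 of synthesis higher in shoot apices (-1.87 ± 0.26 and -1.68 ± 0.13).

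For nitrogen, 10 of 24 tested genes were higher in root tips and 10 in shoot apices, close to the shares of all genes. NPF7.3, a nitrate transporter that loads the xylem, had 651, 570 and 621 CPM in root tips and 0.492, 0.412 and 0.718 CPM in shoot apices (log2 difference 10.13 ± 0.19, edgeR adjusted p = 8.21e-08), and NPF6.3, the nitrate sensor and transporter, 369, 362 and 339 CPM against 63.6, 81.0 and 87.3. The nitrate reductases were higher in shoot apices, NIA1 with 813, 822 and 646 CPM against 118, 142 and 128. Glutamine synthetase split by compartment: the cytosolic forms GLN1;1, GLN1;2, GLN1;3 and GLN1;4 were higher in root tips, GLN1;1 with 476, 482 and 510 CPM against 24.8, 34.8 and 35.5, and the plastid form GS2 in shoot apices with 1575, 1167 and 825 CPM against 165, 171 and 166. The genes of ferredoxin-dependent glutamate synthase also had opposite directions, GLU2 with 489, 479 and 461 CPM in root tips against 67.4, 65.1 and 70.2, and the photorespiratory GLU1 with 938, 548 and 350 CPM in shoot apices against 1.77, 2.65 and 1.404. The high-affinity nitrate transporter NRT2:1 had at most 0.183 CPM in any library.

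For phosphate and sulfate, 8 of 28 tested genes were higher in root tips and 12 in shoot apices, against 36.3% and 37.9% of all genes. PHO1, which exports phosphate to the xylem, had 360, 311 and 291 CPM in root tips and 17.58, 14.02 and 20.16 CPM in shoot apices, and the plastid transporter PHT2;1 309, 264 and 176 CPM in shoot apices and 11.8, 12.5 and 12.3 CPM in root tips. PHT1;1, an uptake transporter, was higher in root tips by 6.17 ± 0.23 on the log2 scale, with the caution that close copies of the family may share its reads. The sulfate uptake genes SULTR1;1 and SULTR1;2 were higher in root tips (102, 81.7 and 83.3 CPM against 8.30, 3.40 and 3.42 for SULTR1;2), and SULTR2;1 and SULTR3;1 to SULTR3;5 in shoot apices.

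Metal, boron and potassium genes were higher in root tips in 24 of 41 and in shoot apices in 11. Of the iron uptake genes in the list, the transporter IRT1 was at 14.9, 10.4 and 6.59 CPM in root tips and 0 in shoot apices (at least 196-fold), the reductase FRO2 at 9.40, 7.498 and 6.72 CPM against 0.615, 0.876 and 0.663, and their regulator FIT at 24.0, 24.0 and 24.7 CPM against 1.29, 0.825 and 1.22. IRT2 was at least 1146-fold higher. The leaf reductases FRO6 and FRO7 were higher in shoot apices. The potassium channel AKT1 of the root had 126, 130 and 126 CPM against 37.1, 39.7 and 51.3, and the guard cell channel KAT1 5.10, 2.99 and 3.54 CPM in shoot apices against at most 0.148. The boron channel NIP5;1 and the borate exporter BOR2 were higher in root tips by 2.83 ± 0.19 and 4.48 ± 0.11 on the log2 scale.

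Myrosinases break down glucosinolates when tissue is crushed, and their genes were split between the organs. TGG1 had 1700, 1736 and 2368 CPM and TGG2 692, 710 and 746 CPM in shoot apices, and neither had a read in any root tip library. They were at least 33947-fold and 12560-fold higher in shoot apices (edgeR adjusted p = 9.04e-07 and 2.24e-07). TGG4 had 479, 519 and 618 CPM and TGG5 422, 452 and 541 CPM in root tips, with at most 0.0615 and 0.184 CPM in shoot apices. TGG4 and TGG5 are close copies, so how their reads divide between them is uncertain. TGG1 and TGG2 are neighbours in the TAIR10.1 gene order, with 2 other protein-coding loci between them that had at most 0.0515 CPM.

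The ER-body beta-glucosidases, which act on indole glucosinolates, were on the root side. PYK10 had 6807, 6921 and 7665 CPM in root tips and 949, 760 and 1081 CPM in shoot apices, and BGLU22 1251, 1277 and 1650 CPM against 0.922, 0.618 and 0.221. Of the regulators, MYB34 and MYB122 were higher in root tips and MYB51 in shoot apices (63.3, 80.0 and 87.3 CPM against 11.8, 10.1 and 11.1). Over 22 tested indole glucosinolate and camalexin genes, 11 were higher in root tips and 9 in shoot apices. Among all genes 36.3% and 37.9% were.

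Aliphatic glucosinolate genes were higher in shoot apices in 15 of 20 and in root tips in 1, MAM3, which became 2 without shoot apex replicate 1 or 2. Shoot apex replicate 3 stood apart from the other two here: CYP79F1 had 66.4, 49.5 and 3.04 CPM, BCAT4 71.6, 58.3 and 2.98 CPM and MAM1 215, 112 and 28.2 CPM. Even so each lay above the root tip libraries, where the 3 genes had at most 1.22 CPM. MYB28, the main regulator of the pathway, did not follow that order (33.6, 28.0 and 35.9 CPM in shoot apices against 8.07, 5.99 and 4.95).

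Triterpene and coumarin genes were higher in root tips in 12 of 14, and in shoot apices in 1, S8H, or 2 without shoot apex replicate 3. The list took 0.358% to 0.455% of the counts in root tips and 0.00385% to 0.00504% in shoot apices. THAS1, which makes thalianol, had 868, 792 and 1110 CPM in root tips and 0.860, 0.309 and 0.110 CPM in shoot apices (log2 difference 11.11 ± 0.43). Of THAH and THAD, which oxidize it, THAH lies directly beside THAS1 in the gene order and THAD lies beside THAH. In root tips THAH had 556, 532 and 712 CPM and THAD 1081, 1085 and 1421 CPM. In shoot apices they had at most 0.553 and 1.04 CPM. The next locus on that side, AT5G47980, had 84.4, 85.7 and 124 CPM against at most 0.0615. AT5G47970 after it was higher in shoot apices (15.2, 12.2 and 16.1 CPM in root tips against 26.2, 26.8 and 27.3), and farther out AT5G47950 had 60.3, 61.9 and 74.9 CPM against at most 0.110. The neighbouring marneral genes CYP705A12, MRO and MRN1 showed the same pattern, with 97.2 to 298 CPM in root tips and at most 0.553 CPM in shoot apices. F6'H1, which makes the coumarin scopoletin, had 58.6, 47.9 and 49.5 CPM against at most 0.123, and its exporter ABCG37 393, 415 and 387 CPM against 8.24, 8.40 and 9.11.

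Flavonoid genes were higher in shoot apices in 6 of 14 and in root tips in 3 (5 without shoot apex replicate 1). Among all genes these shares were 37.9% and 36.3%. The regulators divided, with MYB12 at 21.7, 18.5 and 17.3 CPM in root tips against 2.21, 1.49 and 0.994, and MYB111 at 7.81, 3.20 and 1.77 CPM in shoot apices against 0. Chalcone synthase TT4, which opens the pathway, had 159, 311 and 223 CPM in root tips and 271, 82.8 and 18.1 CPM in shoot apices and was not called (edgeR adjusted p = 0.331); without shoot apex replicate 1 it was (edgeR adjusted p = 0.0159). DFR, of the anthocyanin branch, was at 32.0, 21.2 and 1.88 CPM in shoot apices and 0 in root tips.

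**Figure D4:**
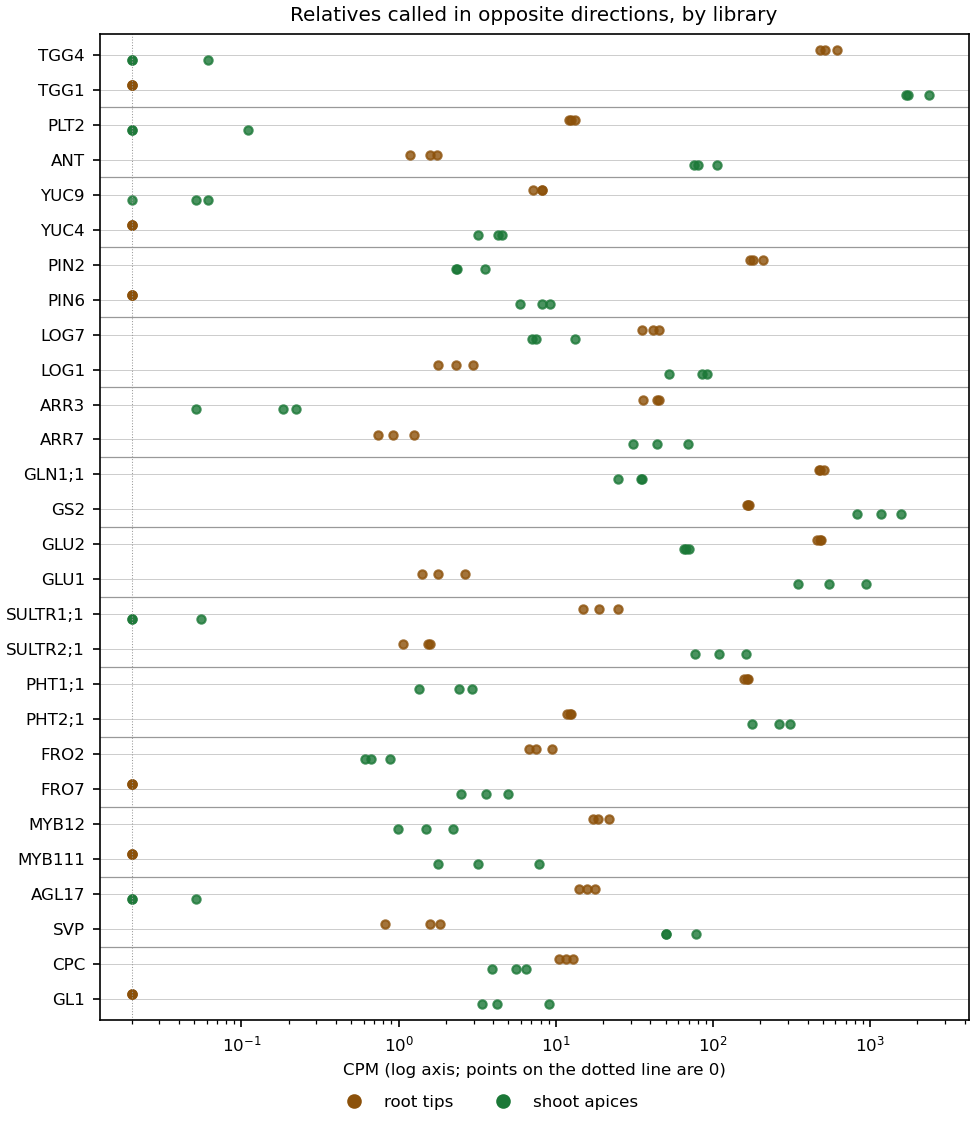
CPM of 14 pairs of related genes in each library, on a log axis with values of 0 on the dotted line; brown points are root tips, green points shoot apices, and grey lines separate the pairs. In each pair the upper gene was called higher in root tips and the lower in shoot apices. No gene's organs overlap, which also holds for 79.03% of all tested genes, and pairs were chosen after their values were seen.

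Cell division genes differed by smaller amounts. Of 28 mitosis genes, 16 were higher in shoot apices, none in root tips (1 without shoot apex replicate 1) and 12 were not called, with a median log2 difference of -0.67. KN, the syntaxin of the cell plate, had 92.7, 73.9 and 44.0 CPM in shoot apices and 28.8, 26.5 and 25.6 CPM in root tips (log2 difference -1.38 ± 0.25, edgeR adjusted p = 0.00140), and CYCB1;1 was not called (31.2, 16.6 and 15.4 CPM against 17.8, 17.3 and 15.4). The mitosis genes took 0.136%, 0.102% and 0.0724% of counts in the shoot apex libraries and 0.0579% to 0.0635% in root tips. Of 27 DNA replication genes, 13 were not called, 9 were higher in shoot apices and 5 in root tips. Among all genes 37.9% were higher in shoot apices and 36.3% in root tips. The shoot count of the list was 15 without shoot apex replicate 3 and 5 without root tip replicate 2 or 3. PCNA1, the replication clamp, had 26.8, 29.9 and 26.3 CPM in root tips and 36.9, 31.9 and 21.1 CPM in shoot apices and was not called (edgeR adjusted p = 0.616), though it was without shoot apex replicate 3 (edgeR adjusted p = 0.0316).

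Of 30 genes that brake the cell cycle or drive endocycles, 12 were higher in each organ, close to the shares of all genes (36.3% and 37.9%). SMR3 (12.2, 12.5 and 13.7 CPM in root tips against 0.307, 0.361 and 0.276) and KRP2 (23.9, 27.6 and 24.97 CPM against 5.41, 5.41 and 6.13), both inhibitors of cyclin-dependent kinases, were root-biased, and SMR4, SMR6 and KRP3 shoot-biased. CCS52A1, which drives endoreduplication, had 44.6, 50.7 and 48.1 CPM against 12.4, 10.2 and 10.99. CYCD6;1, a target of SHR and SCR in the root, was higher in shoot apices (8.17, 4.07 and 7.51 CPM against 0.689, 0.189 and 0.305).

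Ribosome biogenesis genes differed little. None of the 30 was called at least 2-fold apart, 17 were not called and 18 had a 95% interval within 1.5-fold; 5 were higher in root tips (3 without shoot apex replicate 2 or any 1 root tip replicate) and 8 in shoot apices (5 without root tip replicate 1 or 3). The nucleolar protein NUC1 had 442, 449 and 394 CPM in root tips and 434, 418 and 470 CPM in shoot apices. The fibrillarin genes, which encode the methyltransferase that modifies ribosomal RNA, moved apart by small amounts, FIB2 higher in root tips by 0.82 ± 0.10 and FIB1 higher in shoot apices by 0.54 ± 0.09 on the log2 scale.

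Genes of miRNA biogenesis were higher in shoot apices in 15 of 31, in root tips in 2, with 14 not called and 17 with an interval within 1.5-fold. Among all genes 37.9% were higher in shoot apices and 36.3% in root tips. AGO10, which sequesters miR165/166 in the shoot meristem, had 118, 90.5 and 135 CPM in shoot apices and 40.4, 43.3 and 46.0 CPM in root tips. AGO1, the main effector, had 379, 385 and 417 CPM against 309, 306 and 313, and SE, of the processing complex, was not called (95.6, 92.7 and 100 CPM against 90.7, 94.1 and 93.5). RH27 itself had 35.0, 27.2 and 31.2 CPM in shoot apices and 25.7, 24.7 and 22.0 CPM in root tips (log2 difference -0.36 ± 0.13, edgeR adjusted p = 0.0304), a call lost without shoot apex replicate 1 (0.0782) or without any 1 root tip replicate (adjusted p from 0.0545 to 0.0989).

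Lists that respond to handling and time of day also separated the organs. Of 28 genes induced early by wounding and touch, 26 were higher in shoot apices and none in root tips (median log2 difference -3.28). TCH4, a wall enzyme induced by touch, had 1548, 1437 and 1898 CPM in shoot apices and 22.7, 23.9 and 17.0 CPM in root tips, and WRKY40 577, 756 and 759 CPM against 24.5, 22.8 and 32.2. The list took 0.795% to 0.989% of the counts of shoot apices and 0.0918% to 0.113% of those of root tips. Of 26 jasmonate and defence genes, 18 were higher in shoot apices and 4 in root tips, with AOS, of jasmonate synthesis, at 447, 915 and 488 CPM against 42.1, 36.0 and 43.8 and JAZ5, a repressor induced by the hormone, at 221, 321 and 210 CPM against 1.72, 1.70 and 2.503. JAZ1, JAZ5, JAZ7, JAZ8 and JAZ10 belong to both lists and are counted in each. The part of dissection and harvest in these differences was not tested.

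Clock genes were higher in shoot apices in 15 of 21 and in root tips in 1, ELF4 (2 without shoot apex replicate 3). LHY, a morning gene, had 333, 463 and 295 CPM in shoot apices and 94.97, 108 and 94.5 CPM in root tips, and TOC1, an evening gene, 182, 153 and 176 CPM against 76.2, 77.9 and 82.0. The day genes PRR9 (1.66, 9.02 and 15.9 CPM in shoot apices), PRR7 (33.4, 70.2 and 153 CPM) and GI (19.4, 51.7 and 84.5 CPM) varied between shoot apex libraries, with the same library lowest and the same highest for all 3. PRR9 and GI were not called (edgeR adjusted p = 0.0964 and 0.312), and both were without shoot apex replicate 1 (edgeR adjusted p = 0.00211 and 0.0119). Harvest times are not given, and their part in this was not tested.

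**Figure D5:**
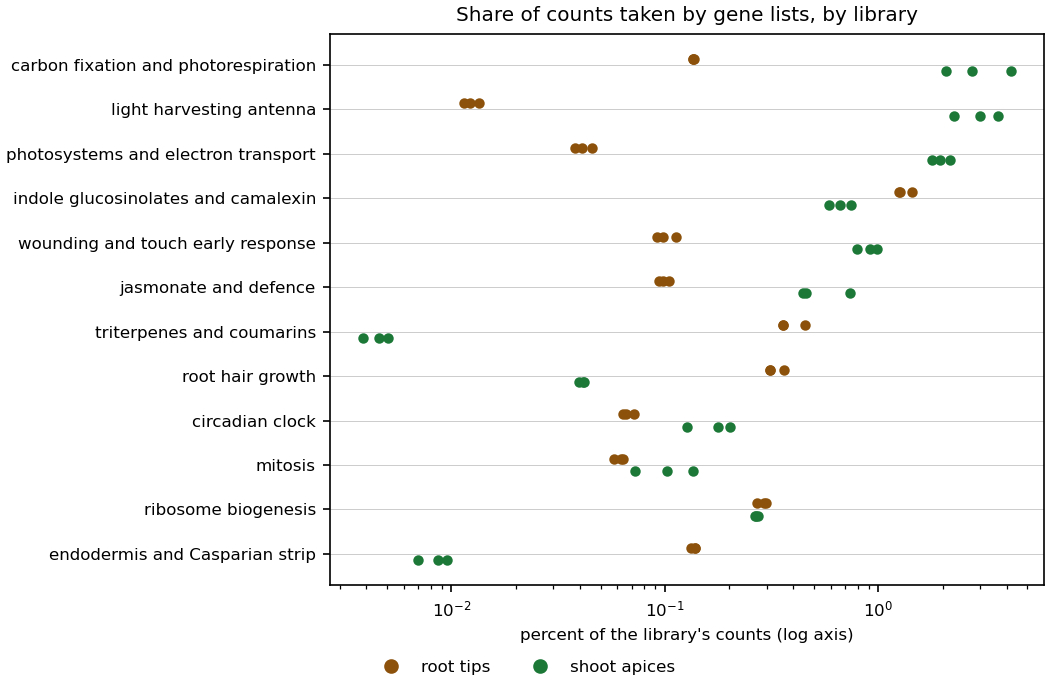
Percent of each library's counts taken by 12 gene lists, on a log axis; brown points are the 3 root tip libraries and green points the 3 shoot apex libraries. Ribosome biogenesis nearly coincides in the organs, triterpenes and coumarins lie at or below 0.00504% in shoot apices and at or above 0.358% in root tips, and the wounding and touch list lies at or above 0.795% in shoot apices.

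Among flowering genes, SVP, a repressor, had 49.97, 50.6 and 77.6 CPM in shoot apices and 1.82, 0.819 and 1.59 CPM in root tips, while its MADS-box relatives XAL1 (24.4, 23.9 and 30.2 CPM against at most 0.553), AGL17 (15.8, 17.7 and 14.04 CPM against at most 0.0515) and AGL21 (52.6, 47.8 and 48.1 CPM against at most 0.184) were higher in root tips. FLC, FT and SPL3 had no read in any of the 6 libraries or in the rh27-2 mRNA libraries, and why was not tested. Over the flowering list, 11 of 22 tested genes were higher in shoot apices and 7 in root tips, against 37.9% and 36.3% of all genes. Hypoxia genes were higher in root tips in 4 of 17 and in shoot apices in 8, of which 3 and 7 were at least 2-fold. For heat shock genes these were 1 and 6 of 11, with 1 and 5 at least 2-fold. Among all genes 22.3% and 25.3% were at least 2-fold higher. ADH1, the fermentation enzyme, had 6.88, 12.7 and 41.6 CPM in shoot apices and 1.08, 1.89 and 0.611 CPM in root tips, and the sucrose synthases SUS1 and SUS4 were higher in root tips by 2.21 ± 0.19 and 3.20 ± 0.22 on the log2 scale. Genes of lateral root initiation were higher in root tips in 9 of 13, among them GATA23, the founder cell factor, at 2.46, 1.76 and 1.83 CPM against 0. The 9 include AT1G69040, matched through the symbol ACR4 and not the receptor kinase of that name. The 3 higher in shoot apices were PLT5, PLT7 and LRP1, with log2 differences of -3.22, -2.59 and -1.52. The amino acid exporters of the UMAMIT family were higher in root tips in 29 of 36 tested and in shoot apices in 6.

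The organ difference was set beside that of rh27-2, measured in 3 root tip and 3 shoot apex libraries of the mutant. There 73.0% of the 20288 tested genes were called: 7468 (36.8%) were higher in root tips and 7337 (36.2%) in shoot apices. With total counts as the scale, the mutant split was 10355 to 5707. Of 14463 wild-type calls that were tested in rh27-2, 10734 (74.2%) were called in the same direction and 771 in the opposite one, and the 10734 were 75.3% of the rh27-2 calls tested in wild type. Among genes that differed at least 2-fold in wild type, 7950 of 9157 (86.8%) were called the same way. The test of the difference itself, the interaction over all 12 mRNA libraries, called 9159 of 20798 genes (44.0%), with 4460 shifted towards root tips and 4699 towards shoot apices in rh27-2; with total counts as the scale these were 6883 and 3321. Of 158 lead genes tested, 79 were among the calls.

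The direction of BCAT4 turned: in rh27-2 it had 114 ± 46.2 CPM (SD, n = 3) in root tips and 22.6 ± 17.9 CPM in shoot apices, against 0.434 ± 0.112 and 44.3 ± 36.4 CPM in wild type (interaction, edgeR adjusted p = 0.00107). Other genes named above turned as well. The log2 difference of WOX5 was -2.34 in wild type and 3.06 in rh27-2 (interaction, edgeR adjusted p = 0.000621). That of SWEET11 was 3.49 and -2.35, that of SWEET12 3.21 and -1.06, and that of CYP707A1 0.97 and -1.70. TGG1, at 0 in wild-type root tips, had 3.16 ± 3.03 CPM in those of rh27-2, and 523 ± 178 CPM in rh27-2 shoot apices where wild type had 1934 ± 376 CPM. TGG4 had 234 ± 41.0 CPM in rh27-2 root tips and 1.58 ± 0.865 CPM in shoot apices, against 538 ± 71.5 and 0.0205 ± 0.0355 CPM in wild type. In the mutant TGG1 was again higher in shoot apices and TGG4 in root tips.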

How the data were processed

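The deposited files hold raw counts per locus, made by the authors; per the submitters' processing notes, which give no roles or versions, TopHat2, HTSeq, edgeR and Bowtie2 and the TAIR10 build were involved. Whether counting used the strand is not given in the sources used here, so overlapping or antisense loci cannot be told apart. Groups were taken from the labels. Symbols came from a RefSeq table of TAIR10.1, which matched 33056 of 33341 loci.

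In R 4.3.3, loci were filtered by filterByExpr (minimum count 10), scaled by TMM and tested with edgeR 4.0.16 (robust quasi-likelihood fit, Benjamini-Hochberg threshold 0.05) on the 6 wild-type libraries, on the 6 rh27-2 libraries, and over all 12 for the interaction. The fits were first tested on simulated data. No 2 replicates agreed within sampling noise. Alternatives used DESeq2 1.42.0, limma 3.58.1, other scalings and filters, a replicate block and each library left out.

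The 45 gene lists, 1083 loci of which 981 were tested, and the members were chosen with earlier results of these data known. Named were the lead genes of each list, up to 3 further members by adjusted p, the 12 largest called differences each way among genes that have a symbol and average a log2 CPM of 3 or more, and the 8 leads with the largest interaction. Other genes named, as well as family counts, gene pairs and gene neighbours, were chosen after their values were seen. Some results that this rule would name are not reported here. No sequence was used.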

Additional observations from a re-analysis of the deposited data

Results flagged for a closer look

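The difference between organs differed between genotypes for 9159 genes by the interaction test of edgeR over the 12 mRNA libraries (3 for each organ and genotype). The 8 lead genes with the largest interaction are given for the same reason. Their interaction adjusted p-values by edgeR were 0.00124 for TGG1, 0.00107 for BCAT4, 8.01e-04 for LHCB1.1, 0.0155 for GRF5, 5.30e-05 for TGG4, 0.0233 for YAB1, 0.0455 for SPCH and 0.00889 for SESA4. SESA4 alone is not called in the wild-type comparison: this seed storage protein gene did not pass its filter on low counts, with 0.935, 0.756 and 0.488 CPM in wild-type root tips and 0 in wild-type shoot apices. LHCB1.1 had 1755 ± 489 CPM (SD, n = 3) in wild-type and 186 ± 36.6 CPM in rh27-2 shoot apices, and GRF5 45.7 ± 10.7 and 11.6 ± 2.51 CPM. YAB1 had 99.8 ± 4.55 CPM in wild-type and 43.7 ± 3.86 CPM in rh27-2 shoot apices, and SPCH 24.9 ± 1.17 and 1.55 ± 0.386 CPM. In wild-type root tips GRF5, YAB1 and SPCH were at 0. In rh27-2 root tips they had 0.421 ± 0.642, 0.253 ± 0.394 and 0.0168 ± 0.0291 CPM. LHCB1.1 had 0.0328 ± 0.0568 CPM in wild-type and 1.56 ± 2.13 CPM in rh27-2 root tips. Where a group is at 0, the size of the interaction depends on a prior count.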

How the results depend on the processing

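The 7 counts of calls in the wild-type, rh27-2 and interaction tests stayed within 1.5 times their values under every alternative run: RLE scaling, total counts, no filter, a filter of 1 CPM in 3 libraries, DESeq2, the replicate block and each library left out, and for the wild-type counts also limma's voomLmFit, scaling to the reference genes and the fit over 12 libraries. Leaving out a library gave 6680 to 7531 wild-type genes higher in root tips and 6891 to 7846 in shoot apices. Scaling to the reference genes moved the median log2 difference of all genes to -0.23 and the counts to 6271 and 8829; DESeq2 gave 7442 and 7332. Of the named genes, 289 were called and 277 of these kept the call and direction in every alternative that tested them; 12 lost it in at least 1, and none reversed. Of 90 counts of list members, 32 of 1260 recomputed values moved by more than 1.5 times. The main fit did not pair libraries by replicate number. Deviations of same-numbered root tip and shoot apex libraries correlated at -0.0055, -0.0369 and 0.0101 across genes. With 3 libraries for each organ, these values cannot tell whether same-numbered libraries shared plants or a harvest. With the replicate block, 7072 genes were higher in root tips and 7272 in shoot apices in wild type, 7090 and 7076 in rh27-2, and 9196 had an interaction. At this depth a gene with no read in a group is bounded, not shown to be absent.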

Other observations

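Further genes with large called differences were at 0 in every library of the other organ. Higher in root tips were the expansins EXPA18 (at least 1972-fold) and EXPA17 (845-fold), the fasciclin-like protein FLA6 (1299-fold), the xyloglucan enzymes XTH13 (1030-fold) and XTH26 (853-fold), the zinc finger factor ZFP6 (1018-fold), the pectate lyase-like RHS14 (1006-fold) and the fucosyltransferase FUT5 (852-fold), all bounds against 0 in every shoot apex library. Higher in shoot apices were the germin-like protein GER3, with 724, 368 and 396 CPM (at least 8500-fold), the lipase LTL1 (2228-fold), E13L3 (1855-fold), SVL2 (1398-fold) and the wax or lipid elongase KCS19 (1369-fold), all at 0 in every root tip library.

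Of the 1083 loci in the lists, 25 had no read in any of the 6 wild-type libraries. Among them were MYC2, a central jasmonate factor, and F3H, of the flavonoid pathway, which also had no read in the rh27-2 libraries; why they are listed at 0 was not tested.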
